A study of Apis mellifera with 8 samples.

Results

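The levels of 9 genes of the larval cuticle were described in the heads of single honey bee larvae (*Apis mellifera*) at 96 h after hatching, in 4 queens (96hQ) and 4 workers (96hW). The genes are CPR3, CPR5, CPR6, CPR14, CPR16, CPR17, CPR19, CPR22 and the apidermin apd-3, out of 9161 genes that could be paired with a transcript. They were chosen by their normalized levels in these same heads, which vary within and between castes, so their spread and their caste difference are descriptions and carry no test. The 96hW larvae were mapped on the comb at hatching and left to develop in their hive, while the 96hQ larvae were grafted into queen cups primed with royal jelly. Diet, rearing cell and handling thus differed together with caste and cannot be told apart from it. Each library holds the poly(A) RNA of 1 dissected head, so differences between replicates include those of animals, dissection and library preparation, and p-values measure that spread only. The head piece includes brain, glands, mouthparts, some fat body, trachea and cuticle.

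The insect cuticle is a layer of chitin fibres set in protein. It is secreted by the epidermis under it and is made anew at each moult. Proteins of the CPR family carry the Rebers and Riddiford domain, through which they bind chitin, and an insect has many of them, used at different stages and in different parts of the body. Apidermins are small cuticle proteins first described in the honey bee. In other insects the genes of cuticle proteins are switched on and off in waves around a moult, under the control of ecdysone and juvenile hormone. The reference table holds 2 genes whose names differ only by a capital, apd-3 and Apd-3, and the gene described here is apd-3.

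Estimated counts summed to between 19139730 and 23344818 per head. Each of the 9 genes had a single paired transcript, and all 9 passed the filter on low counts. For 8 of them the estimated counts were whole numbers in all 8 heads (within 0.001), which leaves no sign of reads divided with another transcript, and CPR22 had a count that was not whole in 2 heads. Normalized counts were scaled between libraries by TMM to the mean library total, and log2 values are those of the normalized count plus 1. Tissue markers also moved between heads. The 8 listed neuron genes summed to between 88.4 and 128.8 TPM (transcript share scaled for length) in 96hQ and between 176.4 and 213.1 TPM in 96hW. The 5 listed fat body genes summed to between 7459 and 18921 TPM in 96hQ, to 6870 TPM in 96hW replicate 1 and to between 52770 and 62330 TPM in the other workers, so that 96hW replicate 1 stood apart from its caste. The 6 listed muscle genes summed to 6392, 2881, 2863 and 4637 TPM in queen replicates 1 to 4. In 96hW replicate 1 the muscle genes summed to 7454 TPM, and in the other workers to between 4002 and 4646 TPM. The 4 fibroin genes of the silk gland summed to at most 9.97 TPM in a head. In bulk RNA, fewer cells of a type cannot be told apart from less RNA per cell, and the part of tissue make-up in the levels below was not tested.

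CPR3 had the widest range of the 9 genes. Normalized counts were 1488, 2348, 93019 and 4259 in queen replicates 1 to 4, and 203.0, 216.2, 125.8 and 225.8 in worker replicates 1 to 4. The castes did not overlap, and 96hQ replicate 3 stood far above every other head. The lowest queen was 6.59-fold above the highest worker. Among the queens the highest head was 62.5-fold above the lowest, and among the workers 1.79-fold. On the TPM scale, CPR3 reached 3649 in 96hQ replicate 3, between 67.6 and 202.8 in the other queens and between 6.39 and 11.2 in the workers. The log2 fold change (96hQ over 96hW) of the mean counts was 7.04 (SE 1.6). The difference of the mean log2 levels, which gives that head less weight, was 5.01.

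The apidermin apd-3 took the same order among the queens. Its normalized counts were 103.8, 174.0, 1717 and 373.8 in the queen heads and 72.0, 75.7, 50.9 and 144.3 in the worker heads, replicates 1 to 4. The castes overlapped, since 96hQ replicate 1 lay below 96hW replicate 4. In 96hQ replicate 3, apd-3 was 4.59-fold above the next queen. Its log2 fold change was 2.78 (SE 0.90) on mean counts, and the mean log2 levels differed by 2.03.

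For CPR14 the queen heads gave 1513, 1022, 7677 and 1659 normalized counts and the worker heads 862.4, 758.8, 515.1 and 978.5. The castes did not overlap, but the gap was narrow, with the lowest queen 1.04-fold above the highest worker. The highest head was again 96hQ replicate 3, at 4.63-fold above the next queen. CPR14 had a log2 fold change of 1.93 (SE 0.64), and its mean log2 levels differed by 1.47.

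CPR6 separated the castes with less spread. The queens were at 336.0, 375.7, 1153 and 607.5 normalized counts and the workers at 136.4, 94.0, 86.8 and 155.8. Every queen was at least 2.16-fold above every worker, and the highest queen was once more replicate 3. The range was 3.43-fold among queens and 1.79-fold among workers. CPR6 had a log2 fold change of 2.38 (SE 0.43), and caste held 80.3% of the variance of its log2 levels, the largest share among the 9 genes, followed by CPR3 with 69.4%.

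CPR5 was low throughout. Its normalized counts were 101.9, 110.3, 297.2 and 96.5 in the queens and 37.6, 97.3, 95.8 and 80.5 in the workers. Apart from the high 96hQ replicate 3 and the low 96hW replicate 1, the heads lay between 80.5 and 110.3 and the castes overlapped. The low head is the worker with the low fat body sum, and without it the log2 fold change of CPR5 went from 0.96 (SE 0.45) to 0.73. Its 35 counts have an exact Poisson 95% interval of 24.4 to 48.7, which covers counting error only.

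**Figure D1:**
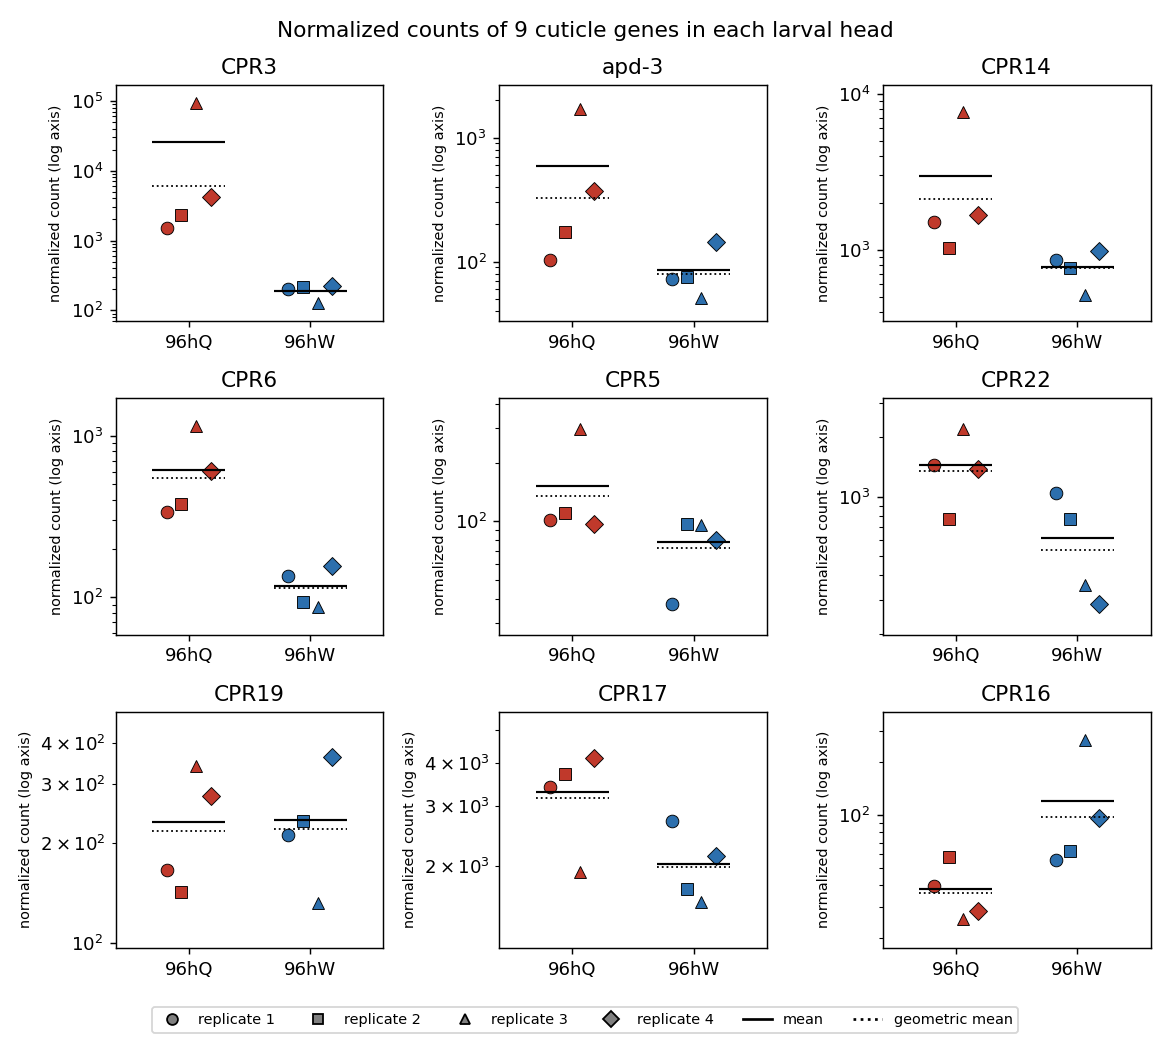
Normalized counts (log axis, a separate range for each gene) of the 9 cuticle genes in 4 queen heads (96hQ, red) and 4 worker heads (96hW, blue), with a marker shape for each replicate number, the mean as a full line and the geometric mean as a dotted line. The red triangle, 96hQ replicate 3, is the highest queen for 7 genes and the lowest for CPR16 and CPR17, and CPR3 spans from 125.8 to 93019.

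CPR22 and CPR19 varied in both castes, and the castes overlapped in each. For CPR22 the queens were at 1453, 766.8, 2199 and 1390 normalized counts and the workers at 1044, 775.0, 357.4 and 286.5. The workers were divided, with replicates 1 and 2 above 96hQ replicate 2, and replicates 3 and 4 below all queens. Its range was wider among workers, 3.64-fold, than among queens, 2.87-fold. CPR22 had a log2 fold change of 1.24 (SE 0.46).

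CPR19 had nearly equal means in the castes. The queens were at 166.1, 142.2, 340.8 and 277.3 normalized counts and the workers at 210.5, 233.5, 131.8 and 363.8. Both the highest and the lowest of the 8 heads were workers. Its log2 fold change was -0.02 (SE 0.37), and caste held 0.0353% of the variance of its log2 levels. The range was 2.40-fold among queens and 2.76-fold among workers.

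CPR17 and CPR16 were lowest, among queens, in the head where the other 7 were highest. CPR17 was at 3408, 3711, 1917 and 4147 normalized counts in the queens and 2713, 1714, 1573 and 2136 in the workers. The other 3 queens lay above all workers, and 96hQ replicate 3 lay among the workers. Without that head the castes did not overlap, and the log2 fold change went from 0.70 (SE 0.26) to 0.89 (SE 0.19).

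CPR16 was higher on average in workers. The queens were at 39.6, 57.7, 25.7 and 28.8 normalized counts and the workers at 55.8, 62.7, 266.5 and 97.2. The castes overlapped through 96hQ replicate 2 and 96hW replicate 1 only, and on the TPM scale they did not overlap, with the lowest worker at 4.40 and the highest queen at 4.20. In 96hW replicate 3, CPR16 was 2.74-fold above the next worker. The log2 fold change was -1.66 (SE 0.55), or 3.16-fold higher in workers, and -0.91 without 96hW replicate 3. The lowest head, 96hQ replicate 3, had 23 counts, with an exact Poisson 95% interval of 14.6 to 34.5 for counting error only.

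Across the 9 genes the same heads were often at the ends of the range. 96hQ replicate 3 was the highest queen for 7 members (CPR3, CPR5, CPR6, CPR14, CPR19, CPR22 and apd-3) and the lowest for CPR16 and CPR17. Over all genes tested it was the highest queen for 31.7% and the lowest for 31.5%. Among the workers, replicate 4 was the highest for 5 members (CPR3, CPR6, CPR14, CPR19 and apd-3), and replicate 3 was the lowest for those 5 and CPR17. Over all genes, 96hW replicate 4 was the highest worker for 22.5% and 96hW replicate 3 the lowest for 22.6%. In CPR3, CPR6 and apd-3 the queens had the same order, from replicate 3 through replicates 4 and 2 down to replicate 1.

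**Figure D2:**
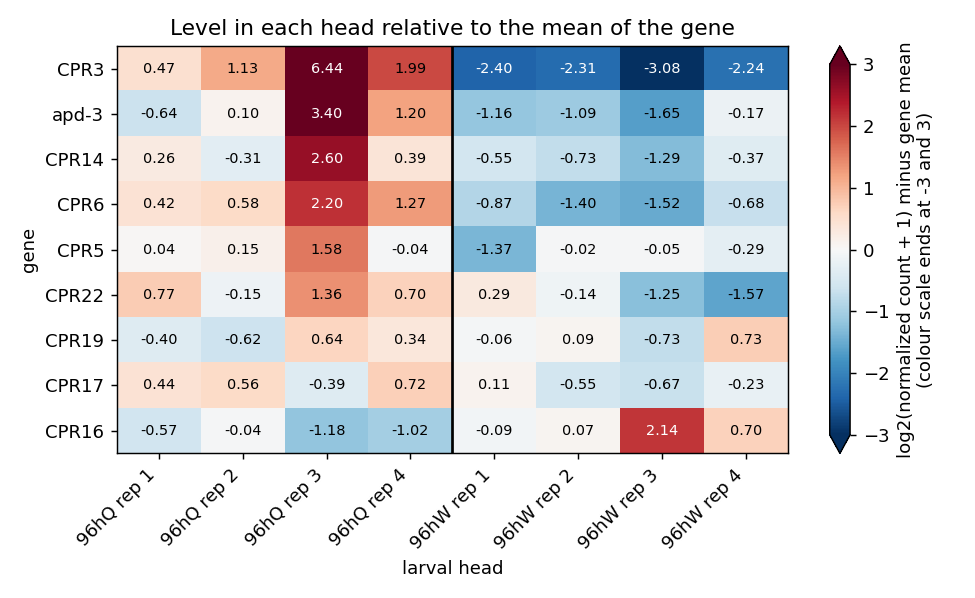
Heat map of log2(normalized count + 1) minus the mean of the gene over 8 heads, with genes in rows, heads in columns and a line between castes, where the colour scale ends at -3 and 3 and each cell prints its value. The 96hQ replicate 3 column runs from 6.44 for CPR3 down to -1.18 for CPR16, and the 96hW replicate 3 column is negative for every gene but CPR16, at 2.14.

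The spread within a caste was wide beside that of most genes. Over the members the median SD of log2 levels was 0.77 among queens and 0.60 among workers, and over all 8151 genes tested it was 0.18 and 0.13. In queens the SD ran from 0.50 for CPR17 to 2.69 for CPR3, which was above that of 99.6% of genes. In workers it ran from 0.35 for CPR17 to 1.02 for CPR16, above 96.2% of genes. The SD was larger among queens for 6 members and for 66.2% of all genes. This count was 3 without 96hQ replicate 3, where CPR5, CPR14 and CPR17 turned over, with 53.7% of all genes, and 8 without 96hW replicate 3, where CPR16 and CPR19 turned over. At the mean count over all heads, counting alone would give an SD of 0.16 for CPR16, 0.14 for CPR5 and 0.01 for CPR3. These values were less than the SD seen in either caste, but counting error is larger in heads with fewer counts. For CPR3 the mean count was set by 96hQ replicate 3, so its value is too small for the workers.

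**Figure D3:**
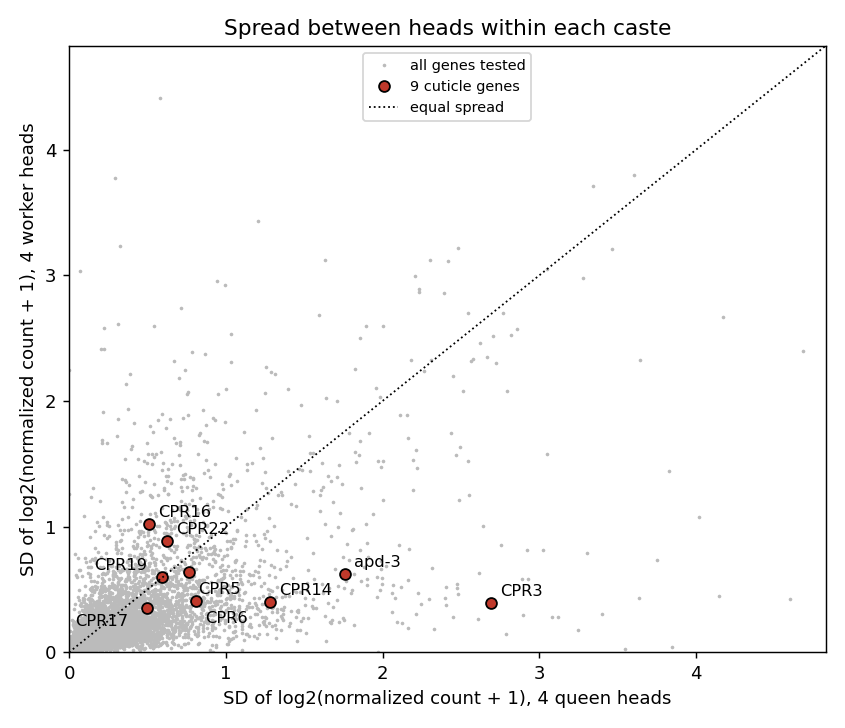
SD of log2(normalized count + 1) among the 4 queen heads (horizontal axis) and the 4 worker heads (vertical axis) for all genes tested (grey) and the 9 cuticle genes (red, named), with a dotted line of equal spread. CPR3 (2.69 and 0.39), apd-3 (1.76 and 0.62) and CPR14 (1.28 and 0.40) lie far below the line, and CPR16 (0.51 and 1.02) and CPR22 (0.63 and 0.89) lie above it, but CPR14 crosses the line without 96hQ replicate 3 (0.37 and 0.40) and CPR16 without 96hW replicate 3 (0.51 and 0.42).

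For many members among queens, and for some among workers, much of this spread rested on single heads. Without 96hQ replicate 3 the median SD of the members among the 3 remaining queens was 0.49, below the 0.60 of the workers, where that of all genes was 0.14. The SD of CPR3 fell from 2.69 to 0.76, that of apd-3 from 1.76 to 0.92, that of CPR14 from 1.28 to 0.37 and that of CPR6 from 0.81 to 0.45. CPR5 went from 0.77 to 0.10, less than its counting SD, and CPR17 from 0.50 to 0.14. The values of CPR3 and apd-3 were then above those of 92.8% and 95.0% of genes, and those of CPR5 and CPR17 above 33.9% and 49.8%. CPR16, CPR19 and CPR22 moved less, to 0.49, 0.50 and 0.51. Among the workers, the SD of CPR16 fell from 1.02 to 0.42 without replicate 3, under its queen SD of 0.51. That of CPR14 fell from 0.40 to 0.18 without the same head, and that of CPR5 from 0.64 to 0.15 without 96hW replicate 1. For CPR22 the SD stayed larger among workers with any head left out, between 0.75 and 1.00. The worker SD of CPR6 was between 0.34 and 0.45 with a head left out. The median worker SD of the members was 0.42 without 96hW replicate 3 and 0.71 without 96hW replicate 2.

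Between castes, 7 of the 9 members had a positive log2 fold change and 2 a negative one, with a median of 1.24, where the median of all genes tested was 0.00459. The lowest queen exceeded the highest worker for CPR3, CPR6 and CPR14, or 3 of 9 members, as it did for 17.2% of all genes tested. The reverse held for 14.7% of all genes, and 31.9% did not overlap in either direction. CPR6 alone was called by edgeR (adjusted p under 0.01), higher in 96hQ, or 1 of 9 members where 5.21% of all genes were called higher in 96hQ, 3.40% higher in 96hW and 8.61% in either direction. Since this contrast was known when the members were chosen, nothing is read from these counts. Of the 8 fits that leave out 1 head, CPR6 was called in those without 96hQ replicate 1 and without 96hQ replicate 3. In the other 6 fits 0 members were called higher in 96hQ. Without 96hQ replicate 3 there were 2 members called higher in 96hQ, CPR6 and CPR3, and 446 genes over all genes tested. DESeq2 on all heads called 3 higher in 96hQ, CPR6, CPR14 and apd-3, and gave no p for CPR3. Of the 8151 genes past the filter it called 1038 higher in 96hQ, against 425 by edgeR, so its count of members has another background.

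The size of several fold changes was set by 96hQ replicate 3. Without it, CPR3 went from 7.04 to 3.81 (SE 0.38) on the log2 scale. The change for apd-3 was from 2.78 to 1.34 (SE 0.50), for CPR14 from 1.93 to 0.85 (SE 0.24) and for CPR5 from 0.96 to 0.41 (SE 0.31), while CPR6 went to 1.90 (SE 0.28). CPR3 then had a mean of 2698 ± 1418 normalized counts in the 3 remaining queens (SD) against 192.7 ± 45.6 in the 4 workers (SD). Caste held 93.6% of its variance in these 7 heads.

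**Figure D4:**
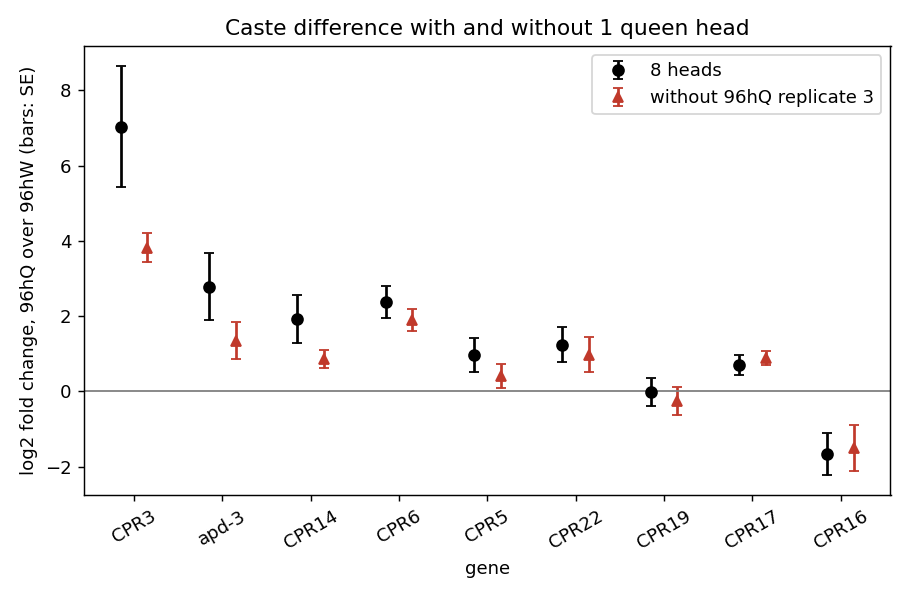
Log2 fold change of 96hQ over 96hW on mean counts (bars are the SE of the fit) for the 9 cuticle genes, from all 8 heads (black circles) and without 96hQ replicate 3 (red triangles), with a line at 0. CPR3 goes from 7.04 to 3.81 and its SE from 1.6 to 0.38, and CPR17 goes from 0.70 to 0.89.

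Levels of different genes were compared per transcript length, in TPM. In queens CPR3 had the highest mean level, 1010 ± 1760 TPM (SD, n = 4), through its value in 1 head. CPR22 (290.2 ± 85.2), CPR14 (239.8 ± 225.1) and CPR17 (216.5 ± 78.5) came next. Lower levels were those of apd-3 (51.2 ± 59.9), CPR6 (23.4 ± 11.6), CPR19 (15.5 ± 5.1), CPR5 (6.89 ± 3.53) and CPR16 (2.54 ± 1.2). Neighbours in this order overlapped in their range over heads, except CPR5 and CPR16. In workers CPR22 (147.9 ± 92.7 TPM) and CPR17 (146.7 ± 43.9) led, followed by CPR14 (76.2 ± 18.7) and CPR19 (17.8 ± 6.4). CPR3 was the fifth, at 9.79 ± 2.27 TPM, with apd-3 (8.97 ± 3.71), CPR16 (8.75 ± 7.21), CPR6 (5.19 ± 1.41) and CPR5 (4.08 ± 1.40) after it. There CPR17 and CPR14, and CPR14 and CPR19, did not overlap, and the other neighbours did.

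The 9 genes were a small part of cuticle RNA. Together they reached 747.5, 719.1, 4928 and 1028 TPM in queen replicates 1 to 4 and 615.2, 427.7, 298.6 and 360.2 TPM in worker replicates 1 to 4. This was between 0.806% and 3.40% of the TPM of all cuticle genes with a symbol, with the highest share in 96hQ replicate 3. In that head CPR3 made up 74% of the sum, against 9.04% to 19.7% in the other queens and 1.82% to 2.95% in the workers. Without CPR3 the sum was 680.0, 599.9, 1279 and 824.9 TPM in queens and 604.1, 416.7, 292.2 and 349.6 TPM in workers, and 96hQ replicate 2 lay below 96hW replicate 1.

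Some of the 9 genes sit beside other cuticle genes in the reference assembly (Amel_HAv3.1, used for gene order only). CPR3 lies between CPR2 and CPR4. CPR2 was at 253880, 186570, 460440 and 271440 normalized counts in the queens and 66476, 100170, 42820 and 135040 in the workers, so that 96hQ replicate 3 was its highest queen too, over a narrower range than for CPR3. CPR4 had means of 267.6 ± 110.8 normalized counts for 96hQ and 208.9 ± 23.3 for 96hW (SD, n = 4), with a log2 fold change of 0.35 (SE 0.26). Its highest queen was also 96hQ replicate 3, at 429.1 normalized counts, and without that head its log2 fold change was 0.036. CPR22 follows CPR21, which was at 42382, 57331, 145590 and 65276 normalized counts in the queens and between 17165 and 20929 in the workers. Among workers the SD of log2 levels was 0.12 for CPR21 and 0.89 for CPR22. CPR17 lies next to CPR18, which had 14670 ± 2964 normalized counts for 96hQ and 12437 ± 4924 for 96hW (SD, n = 4), and in which 96hQ replicate 3 was neither the highest nor the lowest queen.

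The other cuticle genes with a symbol were 18 genes of the CPR, CPF, Cpap3 and apidermin groups, of which 16 passed the filter. By edgeR (adjusted p under 0.01), 5 of the 16 were called, each higher in 96hQ, where 5.21% of all genes tested were called higher in 96hQ. The median log2 fold change over the 16 was 0.81, against 0.00459 over all genes tested. The genes called were CPR12 (log2 fold change 2.10, SE 0.25), CPR13 (1.98, SE 0.32), CPR21 (2.04, SE 0.36), CPR28 (2.11, SE 0.30) and Cpap3-b (0.71, SE 0.13), which has another type of chitin-binding domain. CPR12 was called in all 8 fits that leave out 1 head, CPR28 in 6, CPR13 in 4, CPR21 in 2 and Cpap3-b in 1. The count of 5 was 4 with 96hQ replicate 1, 2 or 3 left out, and 2 without 96hQ replicate 4. Without 96hW replicates 1 to 4 in turn it was 3, 1, 2 and 1. CPF1 had the highest log2 fold change of the 16, 2.43 (SE 0.56, adjusted p = 0.0171 from edgeR). CPF2 (-0.12) and the apidermin Apd-2 (-2.61, SE 0.79, adjusted p = 0.0432 from edgeR) had the lowest. Apd-2 was at 55.7, 19.0, 217.9 and 431.3 normalized counts in the queens and between 639.9 and 1385 in the workers, so it and apd-3 had fold changes of opposite sign. The median SD of log2 levels over the 16 genes was 0.54 among queens and 0.32 among workers, against 0.77 and 0.60 for the 9 members, a difference that was not tested. For 13 of the 16, 96hQ replicate 3 was the highest queen, as for 7 of the 9 and for 31.7% of all genes tested.

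Genes that time the moult were looked up by symbol. Of 10 ecdysone and moult genes, 9 passed the filter, with a median log2 fold change of -0.21. Where 8.61% of all genes tested were called by edgeR in either direction, 1 of the 9 was called. This was Kr-h1, a transcription factor of the juvenile hormone response, at 888.2, 1107, 2588 and 1084 normalized counts in the queens and 276.0, 383.7, 330.4 and 517.5 in the workers (log2 fold change 1.91, SE 0.37, adjusted p = 0.00977 from edgeR). Of the fits that leave out 1 head, only that without 96hQ replicate 3 called it, and its adjusted p from edgeR in these fits was between 0.00411 and 0.0323. E74, which ecdysone switches on early in fruit flies, was at 3426, 2699, 11786 and 2734 normalized counts in the queens and between 3664 and 4441 in the workers. E75, a nuclear receptor of the same early response, was at 4593, 4168, 14473 and 5663 in the queens and between 5010 and 7001 in the workers. For both, 96hQ replicate 3 was above all other heads, as for CPR3, CPR5, CPR6, CPR14, CPR22 and apd-3, and for E74 the other 3 queens were below all workers. Without that head the log2 fold change of E74 went from 0.34 to -0.46 and that of E75 from 0.25 to -0.33. E75 was added after its values were seen. Over the whole list, 96hQ replicate 3 was the highest queen for 6 of the 9 genes past the filter, and over all genes tested for 31.7%. The ecdysone receptor Ecr was at 9146 normalized counts in 96hQ replicate 3, within the range of the other queens, 7120 to 9860. Cyp314a1, the enzyme that converts ecdysone to its active form, had the lowest log2 fold change of the list (-1.06, SE 0.31, adjusted p = 0.0407 from edgeR), followed by Burs (-0.65, SE 0.35, adjusted p = 0.200 from edgeR), a subunit of the hormone bursicon. The part of moulting stage in the levels of the 9 genes was not tested.

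Of the genes that harden and colour the cuticle, 3 had a symbol. With edgeR 0 of the 3 had an adjusted p under 0.01, where 8.61% of all genes tested were called in either direction. An unadjusted p under 0.05 was found for 1 of the 3, but the share of all genes under that level was not counted, so nothing is read from it. DESeq2 called 2 of the tanning and moult genes together higher in 96hQ, where it called 1038 of the 8151 genes past the filter. Its calls higher in 96hW were not counted for the tanning and moult genes. Yellow-y (Y-y), of a family of cuticle pigmentation genes, was at 174.6, 162.8, 633.6 and 148.4 normalized counts in the queens and between 43.0 and 100.8 in the workers, again highest in 96hQ replicate 3 (log2 fold change 2.15, SE 0.55, adjusted p = 0.0256 from edgeR, and 1.37 on the log2 scale without that head). Tyrosine hydroxylase (TyHyd), which makes the precursor of tanning agents, was at 3236, 778.9, 4591 and 2771 in the queens and 409.2, 3182, 6878 and 3400 in the workers. Its highest head was 96hW replicate 3, the worker in which CPR16 was highest and 6 of the 9 members were lowest. The prophenoloxidase gene PPO had means of 1630 ± 1012 for 96hQ and 1288 ± 1073 for 96hW (SD, n = 4).

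Likeness of profiles was measured as the root mean square difference of log2 levels over the 8 heads, each gene centred on its own mean. Among the members, CPR6 and CPR14 were the most alike pair (0.55) and CPR3 and CPR16 the least (3.82). The average profile of the 9 mixes unlike profiles. In 96hQ replicate 3 it was 1.85, with CPR3 at 6.44 and CPR16 at -1.18. Closest to that average was LOC726987 (0.12), at 2238, 2088, 6533 and 2564 normalized counts in the queens and 1278, 1164, 1008 and 1619 in the workers. C1q-VP (0.18) and GstS4 (0.22), a glutathione S-transferase, were the only genes with a symbol among the 10 closest. The rest were LOC413053, LOC411622, LOC552276, LOC413408, LOC724721, LOC102654795 and LOC725899, at up to 0.22. C1q-VP had means of 6734 ± 2917 normalized counts for 96hQ and 2309 ± 374 for 96hW (SD, n = 4). For single members the closest gene was LOC726950 for CPR3 (0.42), LOC724398 for apd-3 (0.42), LOC100578730 for CPR14 (0.24), Grp for CPR6 (0.17) and LOC724412 for CPR5 (0.20). It was LOC107964944 for CPR22 (0.29), LOC107964645 for CPR19 (0.27), LOC410730 for CPR17 (0.20) and LOC100576903 for CPR16 (0.49). LOC726950 was at 281.3, 241.3, 6717 and 731.8 normalized counts in the queens and between 14.0 and 22.6 in the workers, a range of the same kind as that of CPR3.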

How the data were processed

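RNA from the heads of single larvae, 4 of 96hQ and 4 of 96hW, was sequenced by the authors as strand-specific, paired-end, poly(A)-selected libraries. The estimated counts deposited by the authors come from kallisto (version not given in the sources used here), for 28739 transcripts per library, and were not normalized between libraries. The TPM deposited by the authors were scaled by the same tool for effective length and library total. The methods cite a transcript set from Ensembl Metazoa, but RefSeq accessions stand in the deposited files.

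Transcripts were paired with genes by accession root through a RefSeq table of the assembly Amel_HAv3.1, used for names and gene order (17723 transcripts, 9161 genes), and summed. Rounded counts went into edgeR 4.0.16 (R 4.3.3), with TMM, at least 5 estimated counts in at least 4 libraries, the quasi-likelihood F test for caste alone and Benjamini-Hochberg adjustment over 8151 genes at 0.01, the study's threshold. The SE was taken as the size of the log2 fold change over the square root of F. The study's own tool, sleuth, was not used here. On simulated data with known changes among 8151 genes, the fit recovered 53% of 2-fold, 76% of 3-fold and 76% of 4-fold changes. The changed genes were a small part of all genes tested, drawn at random, so each rate rests on few genes. The members spread more between heads than most genes, so these rates do not describe the members.

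The members, lists and rules were chosen with earlier results of these data known. Lists were matched by symbol: other cuticle genes, chitin (no gene matched), tanning, ecdysone and moult, fat body, silk gland, muscle and neuron genes, described by counts and medians. At an adjusted p under 0.01 from edgeR, 2 of 5 fat body genes (median log2 fold change -2.93) and 2 of 8 neuron genes (-0.67) were higher in 96hW. Over all genes tested this share was 3.40%. Of 6 muscle genes (-0.13) and 4 fibroins (0.12), 0 passed, with 1 and 0 at an unadjusted p under 0.05. The share of all genes under that unadjusted level was not counted. Genes named were the 9 members, the 2 highest and 2 lowest fold changes of a list, those called, and the closest profiles. CPR2, CPR4, CPR18, E75, Ecr and, in part, the tanning genes were added after their values were seen. Planned protein and promoter features, and a gene list by protein consensus, were not analysed here. Alternatives were DESeq2 size factors, DESeq2 1.42.0, no filter or 10 counts, limma 3.58.1 on log2(TPM + 1) and log2(TPM + 0.1), a threshold of 0.05, a block for replicate number, and leaving out each head.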

Additional observations from a re-analysis of the deposited data

Results flagged for a closer look

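For 4 members, the normalized count of 96hQ replicate 3 lay so far above the other queens that its gap to the next head, divided by the range of the 4 queens, was above Dixon's 95% critical value. These were CPR3 at 93020 normalized counts (gap over range 0.97), CPR5 at 297.2 (0.931), CPR14 at 7677 (0.904) and apd-3 at 1717 (0.833). On the log2 scale used for the SDs, which was added after the data were seen, the ratio was 0.746 for CPR3, 0.76 for CPR14 and 0.544 for apd-3, all under that value, and 0.881 for CPR5, above it. The 9 genes were chosen by their levels in these heads, so the rate of about 1 in 20 groups that chance would flag does not apply, and the ratios are descriptions and not tests.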

How the results depend on the processing

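Of 135 fold changes of single members under the alternatives, 132 kept their sign, and the 3 that did not were those of CPR19 (-0.02 in all heads), at 0.11 without 96hQ replicate 1, 0.15 without 96hQ replicate 2 and 0.27 without 96hW replicate 4. Another 6 moved by more than the pooled SD, 4 of CPR3 (4.73 and 4.85 with limma on log2 TPM plus 1 and 0.1, 4.53 with the block and 3.81 without 96hQ replicate 3), and those of CPR14 (0.85) and apd-3 (1.34) without 96hQ replicate 3. The median over members was between 0.89 and 1.62 with a head left out. The number of members that did not overlap was 3 in all heads, 4 on TPM, and 3 to 5 with a head left out. The share over all genes was not counted on TPM or with a head left out. Castes with fewer heads separate more easily, so nothing is read from these counts. Genes higher in 96hQ numbered 425, and 89 and 93 with limma on log2 TPM plus 1 and 0.1, 1038 with DESeq2, 1196 at an adjusted p of 0.05, and 100 to 446 with a head left out. For 96hW they numbered 277, and 145, 134, 862, 993 and 42 to 328. The fewest came without 96hW replicate 3 (100 and 42) and the most without 96hQ replicate 3. Of the other cuticle genes 5 were higher in 96hQ, 8 with DESeq2, and 1 to 4 with a head left out. Of the tanning and moult genes 1 was, 0 with DESeq2 size factors, 0 without the filter, 2 with DESeq2, and 0 to 1 with a head left out. These 2 counts over lists were added to the alternatives after the data were seen.

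With the replicate number as a block, 10 genes were higher in 96hQ and 0 in 96hW, and 0 members, 0 other cuticle genes and 0 tanning and moult genes were called. Same-numbered heads deviated from their caste means with correlations of 0.098, 0.015, -0.037 and -0.052 across genes, and only replicate 1 correlated best with its own number. The labels do not say what a replicate number stands for, and these correlations cannot show that same-numbered heads shared nothing more. Counts limit CPR16 and CPR5 most, at 23 and 35 in their lowest heads.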
